A study of Caenorhabditis elegans with 9 samples.

Results

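What stayed different from wild type, and what went past it, when nhr-114 mutants came from mothers given vitamin B12 was described in 6 of the 9 RNA-seq libraries of the series, 3 from B12-supplemented mutants and 3 from wild type. All were made from whole Caenorhabditis elegans at the last larval stage (L4). The wild-type animals (WT) had maternal vehicle. The mutants carried nhr-114(gk849) and had maternal B12 at 8 µM; they are called B12 mutants here. The 3 libraries of mutants with maternal vehicle, called vehicle mutants, are shown beside them because they define which differences stayed. Genotype and B12 differ at once between B12 mutants and wild type, so that the effect of one cannot be told apart from that of the other. None of the 9 libraries of the series came from wild type with maternal B12. The mutants carry a single allele, and the labels do not say whether the libraries of a group came from separate cultures, and the p-values therefore measure the spread between these libraries, which may be technical.

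NHR-114 is a nuclear hormone receptor of the HNF4 family that worms need to grow on a diet low in B12. Vitamin B12 serves a pair of enzymes in animals. Methionine synthase uses it to rebuild methionine, which becomes S-adenosylmethionine (SAM), the methyl donor for phosphatidylcholine synthesis among other reactions. Methylmalonyl-CoA mutase uses it to break down propionate. When B12 is scarce, worms switch on a B12-independent propionate shunt, driven by the receptors NHR-10 and NHR-68, and raise the transcription of methionine cycle genes.

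The targeted gene separated the genotypes in every library. Over nhr-114 (WBGene00003704, chromosome V, 4187202 to 4190008 in WBcel235, plus strand) the rounded estimated counts were 6954, 8027 and 7436 in wild type, 3, 4 and 4 in vehicle mutants, and 3, 2 and 4 in B12 mutants. Maternal B12 therefore came with no return of the transcript. Scaled to library size, wild type held 2240 times the B12-mutant count (95% interval 1180 to 4899, counting error only).

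Between 14461993 and 16659895 estimated counts were assigned per library, and 14065 to 14467 genes had at least 10 of them. On the first principal component, which held 58.9% of the variance of log2 CPM, the estimated count relative to its library's total, wild type scored -1.49, -31.1 and -40.2, B12 mutants -45.01, -58.5 and -44.6, and vehicle mutants 59.96, 89.3 and 71.7. The second component held 20.1% and put wild type at 28.03 to 53.96, B12 mutants at -38.1 to -26.7 and vehicle mutants at -17.8 to -3.34. Wild-type library 1 stood nearest to the vehicle mutants. The summed level of 37 spermatogenesis markers followed the same order, at 445, 545 and 617 CPM in wild type, 298, 177 and 244 in vehicle mutants and 715, 792 and 733 in B12 mutants, with no overlap between groups. Sums over 20 body-wall muscle, 16 pharynx and 29 neuron markers overlapped between wild type and B12 mutants, whereas that over 10 somatic gonad markers did not, at 219 to 221 CPM in wild type and 205 to 215 in B12 mutants. In RNA from whole animals, fewer cells of a type and less RNA per cell cannot be told apart.

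Of 14795 genes tested, 1984 (13.4%) differed between B12 mutants and wild type at an adjusted p under 0.05, 1077 higher (7.28%) and 907 lower (6.13%). At least 2-fold changes made up 523 of the higher and 293 of the lower calls. In the same fit 5422 genes (36.6%) differed between vehicle mutants and wild type, 2714 higher (18.3%) and 2708 lower (18.3%), and 6866 (46.4%) differed between both mutant groups. The 3 comparisons share libraries, so the classes that follow are counts and carry no test of overlap. Higher calls made up 54.3% of all calls on estimated counts, 42.7% with limma on the authors' deposited CPM (981 higher, 1317 lower) and 16.9% with limma on the length-scaled TPM unit (755 higher, 3701 lower), where the median of all genes lay at -0.23 on the log2 scale. Leaving out wild-type library 2 or B12-mutant library 3 lowered the higher calls to 673 and 685, and leaving out B12-mutant library 1 or 2 lowered the lower calls to 582 and 555.

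Calls fell into classes by where the vehicle mutants lay. A gene stayed different when it was called in the same direction in vehicle mutants and in B12 mutants against wild type, which held for 438 higher (2.96%) and 321 lower genes (2.17%). Of these, 143 higher (0.967%) and 60 lower (0.406%) had moved back towards wild type in B12 mutants without reaching it, and are called partly returned. Another 42 higher and 55 lower genes (0.372%) lay further from wild type with B12 than with vehicle. A gene went beyond wild type when B12 mutants differed the same way from wild type and from vehicle mutants while vehicle mutants were not called that way, which held for 559 higher (3.78%) and 511 lower genes (3.45%). Vehicle mutants were called on the opposite side of wild type for 150 of the former and 137 of the latter. The higher beyond-wild-type count was 345 without wild-type library 2, 369 without vehicle-mutant library 3 and 305 without B12-mutant library 3, and the lower one 303 and 243 without B12-mutant library 1 or 2. The 80 higher and 75 lower calls that were left fell in neither class.

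**Figure D1:**
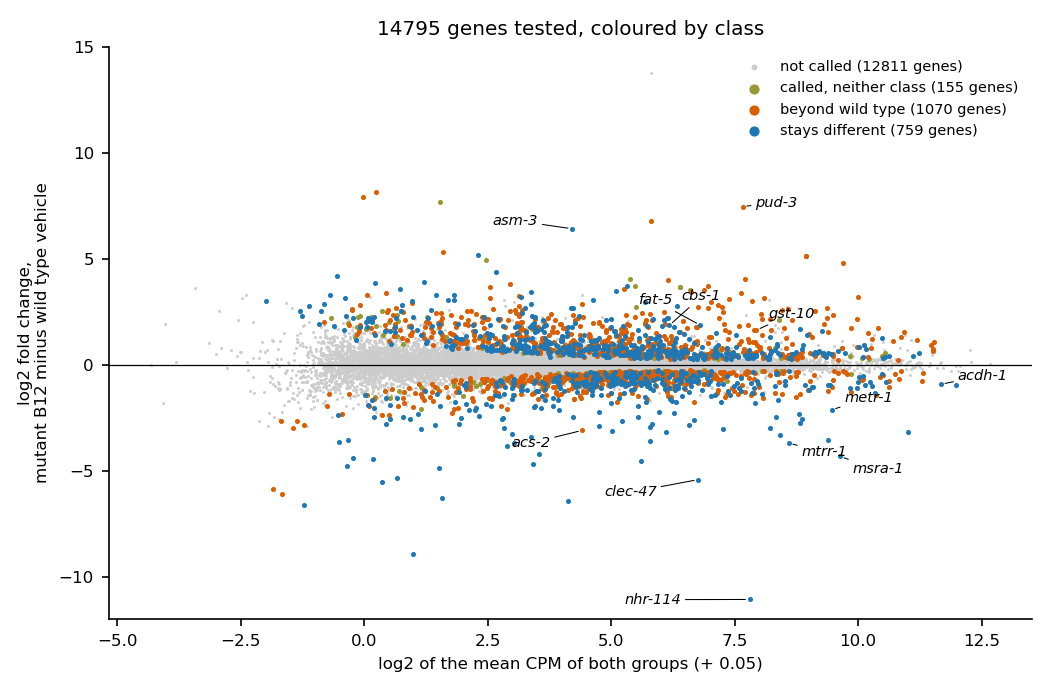
Log2 fold change of B12 mutants against wild type (y axis) over the log2 mean CPM of both groups (x axis), each point being 1 of 14795 genes and its colour the class. The lowest point is nhr-114, and the pud genes of chromosome V lie among the highest.

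Transcripts for transport and handling of B12 stayed low. The ABC transporter gene pmp-5, listed here with B12 handling, stood at 559, 682 and 619 CPM in wild type, 26.3, 29.1 and 28.1 in vehicle mutants and 66.8, 71.3 and 46.97 in B12 mutants. It partly returned, and B12 mutants remained far below wild type (-3.33 ± 0.15 on the log2 scale, SE; adjusted p = 6.81e-07), with every mutant library far under every wild-type one. The gene lies on chromosome V at 6662191 to 6665813.

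The enzymes that ready B12 for use showed the same gap without a return. The cblc-1 gene, which encodes the counterpart of human MMACHC that strips the upper ligand from B12, measured 99.1, 95.7 and 97.5 CPM in wild type, 18.6, 20.2 and 21.7 in vehicle mutants and 13.1, 12.26 and 12.9 in B12 mutants. The groups did not overlap, and the level was lower with B12 than with vehicle (-2.93 ± 0.09 against wild type, adjusted p = 3.02e-08; -0.66 ± 0.09 against vehicle, adjusted p = 0.000281). For mmaa-1, the GTPase that loads B12 onto methylmalonyl-CoA mutase, the values were 162, 169.7 and 197 in wild type, 23.1, 27.99 and 29.1 in vehicle mutants and 26.3, 29.1 and 32.4 in B12 mutants. Both mutant groups overlapped there (0.13 ± 0.12, adjusted p = 0.416), and B12 mutants were below wild type (-2.59 ± 0.12, adjusted p = 8.25e-07).

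The mutase gene itself was close to wild type. Levels of mmcm-1 were 144, 144 and 146 CPM in wild type and 125, 127 and 132 in B12 mutants, a difference of -0.17 ± 0.07 that did not pass (adjusted p = 0.13) although the libraries did not overlap. Of 9 genes of B12 handling and B12-dependent propionate breakdown, 4 were lower, which were pmp-5, cblc-1, mmaa-1 and mtrr-1, and all 4 stayed lower. The propionyl-CoA carboxylase gene pcca-1 was 0.35 ± 0.07 higher (adjusted p = 0.00821), a call lost with TPM. The median of the list was -0.17 in B12 mutants and -0.18 in vehicle mutants, against 0.00 and 0.01 over all genes tested.

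Transcripts of the methionine cycle stayed low in its core steps. Methionine synthase reductase, the product of mtrr-1 (chromosome II, 9285975 to 9289132), reactivates methionine synthase. Its transcript measured 612, 732 and 815 CPM in wild type, 59.2, 61.7 and 61.5 in vehicle mutants and 55.7, 54.9 and 55.1 in B12 mutants. Both mutant groups sat far under the lowest wild-type library, and every B12-mutant library lay slightly below every vehicle-mutant one. The difference from wild type was -3.70 ± 0.11 (adjusted p = 2.34e-08), with -0.14 ± 0.10 between mutant groups (adjusted p = 0.293).

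Methionine synthase, metr-1 (chromosome II, 10926561 to 10931078), stepped down from group to group. Its levels were 1026, 1063 and 1363 CPM in wild type, 571, 690.2 and 647 in vehicle mutants and 254, 266 and 271 in B12 mutants. No groups overlapped, and the B12 mutants were below wild type (-2.13 ± 0.12, adjusted p = 2.65e-06) and below vehicle mutants (-1.27 ± 0.12, adjusted p = 3.40e-05). The same order held for mthf-1, the methylenetetrahydrofolate reductase that supplies the methyl group, at 786, 708 and 752 in wild type, 260.1, 295 and 295 in vehicle mutants and 152, 157 and 134 in B12 mutants (-2.34 ± 0.09 against wild type, adjusted p = 1.93e-07).

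SAM synthetase and the hydrolase downstream followed with smaller gaps. The main intestinal SAM synthetase sams-1 stood at 1512, 1643 and 1314 CPM in wild type, 878, 1136 and 1009 in vehicle mutants and 714, 822 and 741 in B12 mutants (-0.97 ± 0.12 against wild type, adjusted p = 0.000455). The S-adenosylhomocysteine hydrolase ahcy-1 stood at 5502, 5359.8 and 5143 in wild type, 4037, 4788 and 4267 in vehicle mutants and 2927, 2905 and 2573 in B12 mutants (-0.93 ± 0.09, adjusted p = 9.00e-05). In both, the B12 mutants were the lowest group in all 3 libraries.

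Another pair of SAM synthetase genes lay on the other side. Levels of sams-4 were 151, 194 and 203 CPM in wild type, 199.8, 152 and 167 in vehicle mutants and 297, 345 and 339 in B12 mutants, so that vehicle mutants overlapped with wild type and B12 mutants were above both (0.84 ± 0.13, adjusted p = 0.00264). Its close copy sams-3, whose reads the quantification may have divided with it, was called 0.37 ± 0.10 higher (adjusted p = 0.0389), a call lost, with adjusted p from 0.0515 to 0.134, when wild-type library 1, any 1 vehicle-mutant library, or B12-mutant library 1 or 2 was left out, with only the 6 libraries compared, and with limma on deposited CPM or TPM. In all, 5 of 8 methionine cycle genes stayed lower, 4 of them further from wild type with B12 than with vehicle (cause not tested), and 2 went beyond wild type upwards. The list's median was -0.95, against -0.43 in vehicle mutants. Of the genes that stayed lower, mtrr-1 is also counted with B12 handling and mthf-1 with the folate cycle. The results of these lists are therefore not separate.

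**Figure D2:**
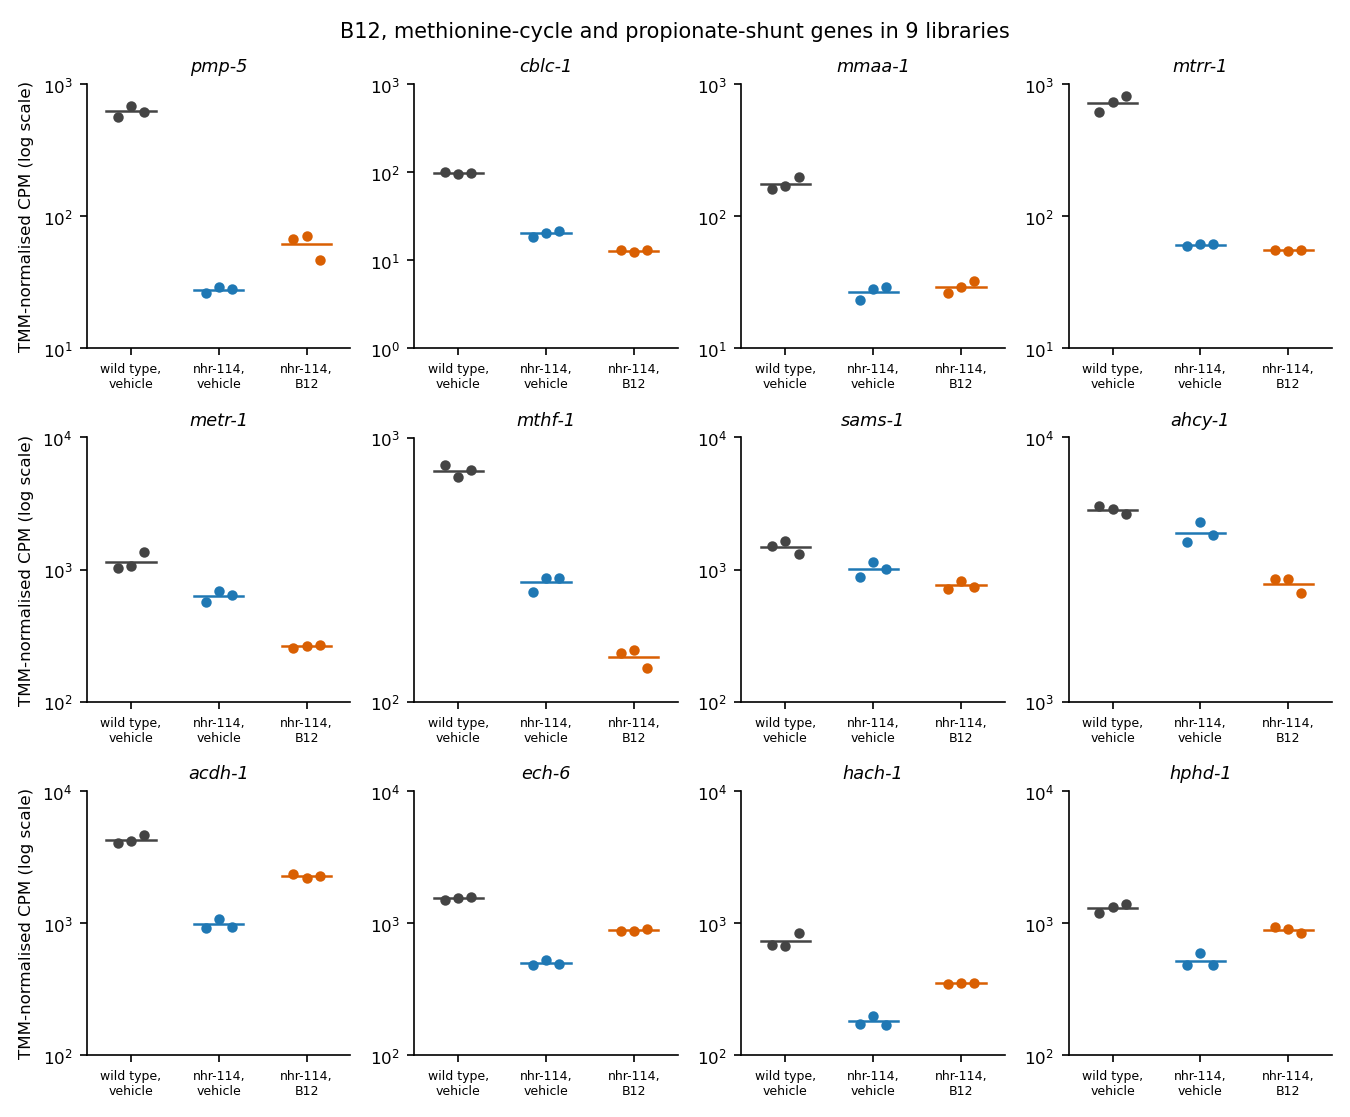
Levels of 12 genes of B12 handling, the methionine cycle and the propionate shunt (y axes, TMM-normalised CPM on log scales) in wild type, vehicle mutants and B12 mutants (x axes), with points for libraries and lines for group means. The transport and methionine cycle genes are as low with B12 as with vehicle or lower, except pmp-5, which rises part of the way, and the 4 shunt genes lie between vehicle mutants and wild type.

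Folate genes that feed the cycle were split. The serine hydroxymethyltransferase mel-32 partly returned, with 1666, 1974 and 1893 CPM in wild type, 523, 621 and 561 in vehicle mutants and 741, 746 and 715 in B12 mutants (-1.33 ± 0.09, adjusted p = 1.05e-05). Thymidylate synthase, tyms-1, went beyond wild type downwards, at 29.7, 39.6 and 31.4 in wild type, 29.8, 27.4 and 29.4 in vehicle mutants and 21.04, 20.9 and 17.9 in B12 mutants (-0.75 ± 0.13, adjusted p = 0.00396). Together with mthf-1 they made 3 lower calls among 13 folate cycle genes, which were 5 without wild-type library 1. The 1 higher call, the glycine cleavage gene gcsh-1, was lost without wild-type library 2 or 3 or B12-mutant library 1 (adjusted p from 0.0636 to 0.0836) and with TPM.

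Transcripts of 2 genes on the route from homocysteine to cysteine stayed high. Cystathionine beta-synthase, cbs-1 (chromosome X, 10054275 to 10057528), measured 32.5, 27.8 and 33.4 CPM in wild type, 139, 176 and 158 in vehicle mutants and 107, 115 and 118 in B12 mutants. It partly returned, and all B12-mutant libraries were still far above the highest wild-type one (1.86 ± 0.11, adjusted p = 3.46e-06). Cystathionine gamma-lyase, cth-1, which makes cysteine in the next step, was higher again with B12, at 193, 214 and 245 in wild type, 405, 499.6 and 440.0 in vehicle mutants and 748, 720.3 and 605 in B12 mutants (1.67 ± 0.12 against wild type, adjusted p = 1.68e-05; 0.62 ± 0.12 against vehicle, adjusted p = 0.00182). Among 13 transsulfuration and sulfide genes these were the 2 higher calls. The list as a whole did not lean upwards, with 7 of the 13 means above wild type. Its median was 0.002, against -0.10 in vehicle mutants. The one lower call was cysl-3, a cysteine synthase-like gene, at -0.74 ± 0.13 (adjusted p = 0.00386), which was higher than wild type in vehicle mutants (0.58, adjusted p = 0.00432).

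The propionate shunt partly returned as a whole. All 5 genes were lower in both mutant groups, and all 5 lay between vehicle mutants and wild type in B12 mutants, with a median of -0.81 against -1.62 with vehicle. The acyl-CoA dehydrogenase acdh-1, which opens the shunt, stood at 4010.2, 4186 and 4633 CPM in wild type, 926, 1072 and 942 in vehicle mutants and 2364, 2183 and 2261 in B12 mutants. The B12 mutants thus lay clear of both other groups (-0.91 ± 0.09 against wild type, adjusted p = 9.86e-05; 1.21 ± 0.09 against vehicle, adjusted p = 8.99e-06). The hydroxypropionate dehydrogenase hphd-1 measured 1199.9, 1333 and 1398 in wild type, 480.5, 593 and 483 in vehicle mutants and 934, 908 and 842 in B12 mutants (-0.55 ± 0.10, adjusted p = 0.00595). For the hydratase ech-6, the hydrolase hach-1 and the semialdehyde dehydrogenase alh-8 the differences from wild type were -0.81, -1.05 and -0.43.

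The pair of receptors that drive the shunt differed. Levels of nhr-68 partly returned, at 141, 140.4 and 163 CPM in wild type, 74.6, 83.6 and 66.2 in vehicle mutants and 89.2, 95.4 and 106 in B12 mutants (-0.61 ± 0.11, adjusted p = 0.0049). Those of nhr-10 were 26.9, 26.2 and 28.6 in wild type, 35.3, 48.4 and 41.9 in vehicle mutants and 25.4, 24.8 and 29.6 in B12 mutants. There wild type and B12 mutants overlapped (-0.03 ± 0.13, adjusted p = 0.897).

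Phosphatidylcholine synthesis held genes that came back fully and genes that did not. The phosphoethanolamine methyltransferase pmt-1, the first SAM-dependent step, measured 609, 562 and 525 CPM in wild type, 1384, 1824 and 1600.3 in vehicle mutants and 608, 577 and 633 in B12 mutants. B12 mutants overlapped with wild type (0.10 ± 0.11, adjusted p = 0.587). The next methyltransferase, pmt-2, was below wild type with vehicle and lower still with B12, at 1604, 1711 and 1693, then 1145, 1329.9 and 1174, then 795, 845 and 829.9 (-1.02 ± 0.08, adjusted p = 2.44e-05).

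Transcripts of the choline route stayed partly raised. Choline kinase ckb-2 stood at 16.8, 12.995 and 17.7 CPM in wild type, 175, 204 and 179 in vehicle mutants and 35.9, 29.1 and 42.1 in B12 mutants, so that most but not all of the rise was gone (1.17 ± 0.15, adjusted p = 0.000895). The CTP-using enzyme gene pcyt-1, which catalyses the rate-limiting step of that route, stood at 113, 94.7 and 102, then 276, 327 and 299, then 167, 171 and 173 (0.72 ± 0.09, adjusted p = 0.000719). Of 12 phosphatidylcholine genes tested, 2 were higher and 2 lower, with a median of -0.14 against 0.40 in vehicle mutants. The second lower call, cept-1, was lost without wild-type library 1 or 2 or any 1 B12-mutant library (adjusted p from 0.0664 to 0.0736) and with only the 6 libraries compared.

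Transcripts of fat synthesis under SBP-1, the worm SREBP that rises when phosphatidylcholine is short, were largely but not wholly back. Of 16 genes of that axis 14 were higher in vehicle mutants, and 4 were still higher in B12 mutants, all of them partly returned. The palmitoyl-CoA desaturase fat-5 (chromosome V, 17725004 to 17726818) measured 36.9, 61.6 and 45.4 CPM in wild type, 950.4, 946 and 872 in vehicle mutants and 181, 192 and 153 in B12 mutants (1.87 ± 0.17, adjusted p = 7.44e-05). The stearoyl-CoA desaturase fat-7 measured 142, 167 and 198, then 1660.5, 1952 and 1744, then 446, 401 and 431 (1.34 ± 0.12, adjusted p = 6.42e-05). In each case the B12 mutants lay clear of both other groups.

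The related desaturase fat-6 remained at 1372, 1350.0 and 1271 CPM against 657, 735 and 838 in wild type (0.84 ± 0.10, adjusted p = 0.000367), and ATP-citrate lyase, acly-1, at 457, 502 and 318 against 245, 259 and 195 (0.87 ± 0.16, adjusted p = 0.00696). For sbp-1 itself the values were 48.4, 49.9 and 45.8 in wild type, 92.1, 100.03 and 97.6 in vehicle mutants and 57.9, 59.3 and 54.6 in B12 mutants. The B12 mutants were above every wild-type library, but the difference of 0.25 ± 0.08 did not pass (adjusted p = 0.0576).

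Other genes of the axis were below wild type. The phosphatidate phosphatase lpin-1, which makes diacylglycerol, stood at 376, 418 and 496 CPM in wild type, 652, 710.0 and 662 in vehicle mutants and 255, 252 and 222 in B12 mutants, crossing from one side of wild type to the other (-0.82 ± 0.11, adjusted p = 0.000894). Fatty acid synthase, fasn-1, was called lower (-0.69 ± 0.17, adjusted p = 0.0241), a call lost without B12-mutant library 1, 2 or 3, with adjusted p from 0.0525 to 0.0794, and with only the 6 libraries compared. The Mediator subunit mdt-15 was called lower (-0.31 ± 0.08, adjusted p = 0.0246), a call lost without wild-type library 2 or B12-mutant library 1, 2 or 3, with adjusted p from 0.0503 to 0.0938. The median of the axis was 0.02 in B12 mutants and 1.01 in vehicle mutants.

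**Figure D3:**
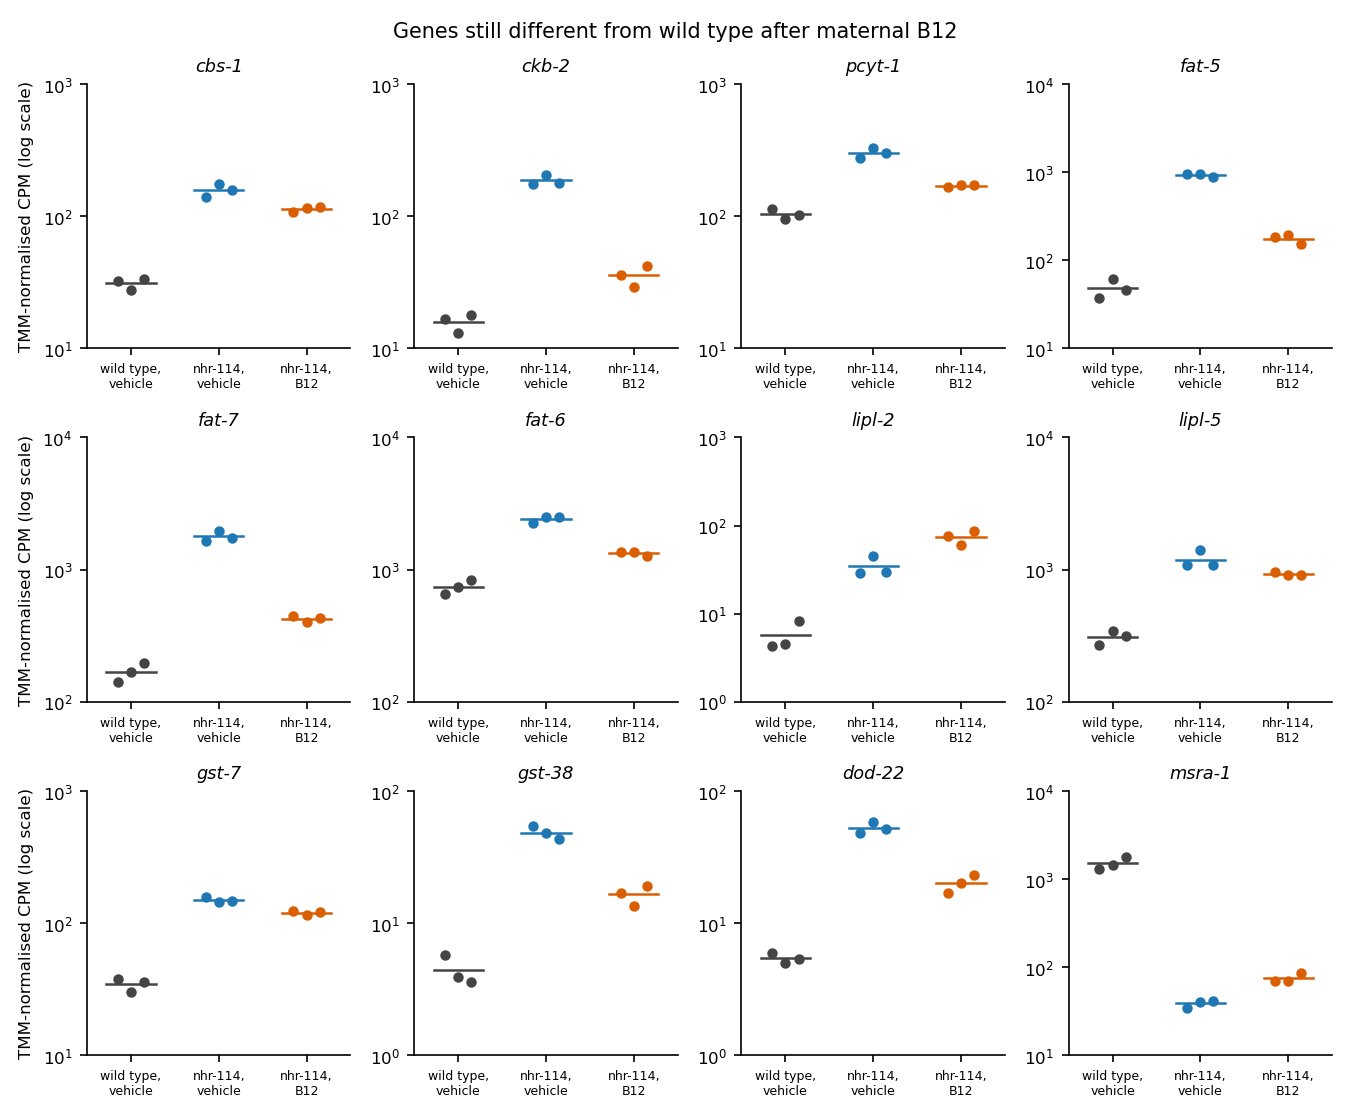
Levels of 12 genes (y axes, TMM-normalised CPM on log scales) in wild type, vehicle mutants and B12 mutants (x axes), with points for libraries and lines for group means. In 11 panels the B12 mutants lie between both other groups, and in the panel of lipl-2 they lie above vehicle mutants.

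Lysosomal lipases lay on both sides of wild type. The lipl-2 gene went from 4.31, 4.49 and 8.22 CPM in wild type through 28.9, 44.9 and 30.1 in vehicle mutants to 75.4, 60.9 and 86.9 in B12 mutants (3.71 ± 0.28, adjusted p = 4.55e-05). The abundant lipl-5 stayed at 957, 906 and 912 against 271, 343 and 316 in wild type (1.58 ± 0.12, adjusted p = 2.30e-05). Levels of lipl-1 were 2.36, 2.79 and 2.54 in wild type, 2.05, 4.33 and 2.65 in vehicle mutants and 16.22, 15.4 and 15.4 in B12 mutants, so that vehicle mutants overlapped with wild type and B12 mutants were above both (2.61 ± 0.25, adjusted p = 9.67e-05).

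A further pair of lipases moved the other way. Levels of lipl-3 and lipl-4 stayed lower, at 0.413 to 0.489 CPM and 1.398 to 1.93 CPM in B12 mutants against 3.04 to 5.15 and 6.20 to 8.26 in wild type (-3.04 ± 0.33 and -2.15 ± 0.23, adjusted p = 0.000268 and 0.000212). The hormone-sensitive lipase gene hosl-1 partly returned (-0.95 ± 0.11, adjusted p = 0.000396), and the diacylglycerol acyltransferase dgat-2, which makes triglyceride, lay further down than with vehicle (-1.08 ± 0.11, adjusted p = 0.000163). The fatty acid binding protein genes lbp-5 and lbp-7 stayed higher by 1.26 ± 0.14 and 1.36 ± 0.14 (adjusted p = 0.000327 and 0.000161). Fat storage and lipolysis thus had 5 higher and 5 lower calls among 19 genes, with a median of 0.10.

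Fatty acid oxidation genes went beyond wild type in both directions. The acyl-CoA synthetase acs-2 (chromosome V, 15567394 to 15569897), which commits fatty acids to mitochondrial breakdown, stood at 44.3, 20.2 and 49.98 CPM in wild type, 35.0, 57.4 and 45.5 in vehicle mutants and 5.49, 2.07 and 5.80 in B12 mutants. Vehicle mutants overlapped with wild type, and all B12-mutant libraries lay under the lowest wild-type one (-3.09 ± 0.45, adjusted p = 0.00327). The enoyl-CoA hydratase ech-1.1 stood at 12.1, 24.1 and 26.8 in wild type, 31.2, 27.4 and 24.5 in vehicle mutants and 97.1, 80.6 and 98.6 in B12 mutants (2.13 ± 0.25, adjusted p = 0.000746).

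A pair of carnitine palmitoyltransferase homologues rose with it. Levels of cpt-4 were 11.7, 15.8 and 26.97 CPM in wild type and 69.8, 47.7 and 60.6 in B12 mutants (1.71 ± 0.29, adjusted p = 0.00567), and those of cpt-5 40.6, 54.9 and 42.5 against 120.5, 84.7 and 106 (1.17 ± 0.17, adjusted p = 0.00154). Vehicle mutants were not called against wild type for either. For cpt-5 they stood at 54.2, 73.9 and 59.9 CPM, close to the threshold (0.45 ± 0.17 against wild type, adjusted p = 0.0576). The list of 18 mitochondrial beta-oxidation genes had 5 higher and 4 lower calls and a median of 0.06, against 0.28 in vehicle mutants. Its lower calls include ech-6, already counted in the propionate shunt. The higher calls were 3 without wild-type library 1, vehicle-mutant library 3 or any 1 B12-mutant library. Peroxisomal beta-oxidation had 3 higher and 1 lower among 12, with 1 higher without wild-type library 2 or B12-mutant library 1, and the lower call lost without B12-mutant library 1 or 2. With TPM the mitochondrial list had 3 higher and 7 lower calls with a median of -0.13, and the peroxisomal list 0 higher and 3 lower with a median of -0.18.

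The acid sphingomyelinase asm-3 (chromosome IV, 520214 to 523809) rose most among genes that stayed higher, of those named by letters and number with a mean of at least 5 CPM. It measured 0.295, 0.364 and 0.592 CPM in wild type, 3.41, 8.72 and 3.39 in vehicle mutants and 43.2, 32.1 and 34.04 in B12 mutants, a series of 3 groups with wide gaps. The count ratio to wild type was 88.01 (95% interval 57.4 to 143, counting error only), and the fitted difference 6.42 ± 0.45 (adjusted p = 2.17e-05).

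Glutathione transferases, which conjugate glutathione to reactive compounds, stayed high as a family. Of 35 tested 17 were higher in B12 mutants and 1 lower, and 15 of the higher ones were higher with vehicle as well. The family's median was 0.69 in B12 mutants and 0.64 in vehicle mutants, and 16 to 18 members were called higher in each alternative analysis. Levels of gst-7 were 37.8, 29.997 and 35.7 CPM in wild type, 157, 145 and 148 in vehicle mutants and 125, 114.4 and 121 in B12 mutants (1.80 ± 0.10, adjusted p = 2.12e-06). Those of gst-5 were 53.9, 43.2 and 44.7, then 72.3, 66.8 and 63.9, then 130.3, 125 and 134, so that the groups formed 3 steps (1.46 ± 0.10, adjusted p = 1.00e-05).

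Within the family the return differed from gene to gene. Levels of gst-38 fell back from 54.3, 47.7 and 43.3 CPM in vehicle mutants to 17.01, 13.6 and 19.1 in B12 mutants, still above 5.79, 3.95 and 3.61 in wild type (1.90 ± 0.20, adjusted p = 0.000195). By contrast gst-10 (chromosome V, 2561690 to 2564645), which detoxifies the lipid aldehyde 4-hydroxynonenal, measured 104, 130.4 and 124 in wild type, 89.4, 108 and 88.7 in vehicle mutants and 387, 375 and 351 in B12 mutants. It was beyond wild type (1.63 ± 0.11, adjusted p = 1.00e-05), while vehicle mutants lay slightly below (-0.32, adjusted p = 0.0399).

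Other detoxification families did not lean one way. Over all genes tested, 7.28% were called higher and 6.13% lower. Cytochromes P450 had 8 higher and 7 lower calls among 64, the lower ones ranging from 3 to 8 when a library was left out, with 3 without B12-mutant library 2 and 4 without wild-type library 2, vehicle-mutant library 3 or B12-mutant library 1. The UDP-glucuronosyltransferases had 10 higher and 13 lower among 62, with 6 higher without B12-mutant library 2 and 8 lower without wild-type library 2 or B12-mutant library 1 or 2. Among P450 genes cyp-37B1 stayed higher, at 0.473, 0.0607 and 1.18 CPM in wild type, 5.66, 6.02 and 6.36 in vehicle mutants and 12.9, 10.2 and 12.999 in B12 mutants (4.37 ± 0.48, adjusted p = 0.000323). In the transferases ugt-31 stayed higher and ugt-17 lower (1.85 ± 0.15 and -1.73 ± 0.15, adjusted p = 2.75e-05 and 5.75e-05).

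A single oxidative stress gene kept one of the deepest gaps. The msra-1 gene (chromosome II, 7363220 to 7364040) encodes methionine sulfoxide reductase A, which repairs oxidised methionine in proteins. Its transcript measured 1289.8, 1448 and 1799 CPM in wild type, 34.6, 40.7 and 41.3 in vehicle mutants and 70.4, 70.2 and 85.5 in B12 mutants. B12 mutants were above vehicle mutants by 0.95 ± 0.14, yet remained below wild type (-4.33 ± 0.15, adjusted p = 7.33e-08). Of 19 genes listed for SKN-1, the worm NRF factor, and oxidative stress, 7 were higher, of which 6 stayed higher, and msra-1 was the 1 lower. The higher ones include gst-5, gst-7 and gst-10, already counted among the glutathione transferases, so the results of both lists are not separate.

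Single genes of unlike function stayed far below wild type. The lectin gene clec-47 (chromosome V, 15175759 to 15176324) stood at 201, 212 and 223 CPM in wild type, 4.23, 4.52 and 3.83 in vehicle mutants and 4.45, 5.44 and 4.96 in B12 mutants, with no return (-5.42 ± 0.11, adjusted p = 7.34e-10; 0.24 ± 0.12 between mutant groups, adjusted p = 0.16). The claudin-like gene clc-24 measured 27.7, 36.0 and 39.9 in wild type, 0.273, 0.0628 and 0 in vehicle mutants and 0.183, 0.344 and 0.699 in B12 mutants, a wild-type count 86.7 times that of B12 mutants (95% interval 54.7 to 147).

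Lysozymes, which break bacterial cell walls, were split. Levels of lys-4 were 1066, 1372 and 1277 CPM in wild type, 31.7, 43.0 and 37.03 in vehicle mutants and 89.9, 114.3 and 112 in B12 mutants (-3.55 ± 0.15, adjusted p = 3.16e-07). It returned by a small part, as did lys-5 (-3.41 ± 0.29, adjusted p = 4.13e-05), while lys-6 stood at 21.7, 20.7 and 18.99 against 0.427, 0.964 and 0.978 (-4.70 ± 0.30, adjusted p = 5.39e-06). Of 10 lysozymes 4 stayed lower, and 4 were below wild type in every alternative analysis. Another 2 stayed higher, among them lys-1 (0.74 ± 0.09, adjusted p = 0.000367), and the higher calls were 1 without wild-type library 1 or 2 or B12-mutant library 1 or 2, with only the 6 libraries compared, and with TPM. C-type lectins had 10 higher and 19 lower calls among 111, of which 5 stayed higher and 11 stayed lower, with a median of -0.06. Over all genes tested, 7.28% were higher and 6.13% lower, while 2.96% stayed higher and 2.17% stayed lower.

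Cathepsins and aspartyl proteases, lysosomal and gut enzymes that digest protein, were lower in 11 of 18 genes and higher in none by edgeR over all 9 libraries or DESeq2, with 2 higher at an unadjusted p under 0.05 and 1 called higher without wild-type library 3. Of the 11, 5 stayed lower and 5 went beyond wild type, with a median of -0.74 against -0.28 in vehicle mutants, and 9 to 12 were lower in each alternative. The aspartyl protease asp-13 measured 649, 896 and 822 CPM in wild type, 59.0, 72.5 and 57.1 in vehicle mutants and 117, 134 and 106 in B12 mutants (-2.73 ± 0.15, adjusted p = 2.16e-06). The cathepsin B-like gene cpr-4 measured 813, 1036 and 552, then 245, 324 and 253, then 135, 143 and 125 (-2.58 ± 0.21, adjusted p = 6.84e-05). Beside them, 19 intestinal markers were summed, the proteases cpr-1, cpr-4 and asp-3 included. The marker list as drawn up also names the proteases cpr-6 and asp-1. The sum was 12184, 15425 and 12348 CPM in wild type, 12079, 14217 and 12528 in vehicle mutants and 11158, 10219 and 10449 in B12 mutants. Of those 19 markers 5 were lower, cpr-1, cpr-4 and asp-3 among them, and 1 higher, and none was at 0. Mean levels in wild type and B12 mutants were 1974 and 1176 CPM for asp-3 and 712 and 315 for cpr-1. The sum is therefore not separate from the protease result, and the part of the markers in that result was not tested.

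Smaller groups of unlike function also stayed different. The small heat shock protein gene hsp-12.3 was lower still with B12, at 14.003, 13.3 and 17.9 CPM in wild type, 4.03, 3.39 and 4.01 in vehicle mutants and 1.098, 1.102 and 1.26 in B12 mutants (-3.70 ± 0.21, adjusted p = 2.72e-06). The chemoreceptor gene srh-237 stayed at 1.65, 0.688 and 1.19 against 20.7, 21.3 and 23.8 in wild type (-4.20 ± 0.26, adjusted p = 4.64e-06). Among genes that stayed higher, the chemoreceptor str-7 was at 17.5, 19.97 and 12.2 against 2.90, 2.73 and 2.01 (2.70 ± 0.22, adjusted p = 3.16e-05), and the neuropeptide-like gene nlp-34 was 3.21 ± 0.34 higher (adjusted p = 0.000211).

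The stress-linked dod-22 partly returned, from 47.9, 58.2 and 51.8 CPM in vehicle mutants to 16.9, 20.04 and 23.3 in B12 mutants, against 5.97, 4.98 and 5.32 in wild type (1.89 ± 0.15, adjusted p = 2.57e-05). The bZIP factor zip-10 (2.15 ± 0.32, adjusted p = 0.00184), the F-box gene fbxc-58 (1.89 ± 0.23, adjusted p = 0.00058) and the degenerin channel acd-1 (2.1001 ± 0.15, adjusted p = 1.08e-05) were in the same position. The P-glycoprotein gene pgp-9 had come most of the way, from 710.3, 693 and 634 to 149, 129 and 134, against 77.3, 65.2 and 62.5 in wild type (1.01 ± 0.10, adjusted p = 0.000147).

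Among called genes named by letters and number with a mean of at least 5 CPM, pud-3 and pud-4 had the largest rises over wild type. The pud genes, named for proteins that accumulate in a daf-2 mutant, and a pair of unnamed neighbours lie side by side on chromosome V, from 2322038 (the start of pud-1.2) to 2330930 (the end of pud-1.1). Levels of pud-3 were 1.42, 1.397 and 3.96 CPM in wild type, 2.52, 4.64 and 2.72 in vehicle mutants and 318, 343 and 547 in B12 mutants. Vehicle mutants overlapped with wild type, and the count in B12 mutants was 176 times that in wild type (95% interval 146 to 213; 7.47 ± 0.47, adjusted p = 3.16e-05). For pud-4 the levels were 0.768, 0.729 and 1.48, then 0.273, 1.38 and 0.370, then 88.2, 95.97 and 149.6, a ratio of 111 (83.9 to 149; 6.80 ± 0.43, adjusted p = 2.17e-05).

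The other genes of the cluster are near-identical copies whose reads the quantification divided among them, so their sums are given. Together pud-1.1 and pud-1.2 stood at 43.3, 35.8 and 93.2 CPM in wild type, 19.6, 32.8 and 26.5 in vehicle mutants and 1376, 1510.4 and 2249.9 in B12 mutants (4.90 ± 0.44, adjusted p = 0.00033). F15E11.1 and F15E11.14 together stood at 44.4, 32.1 and 87.5, then 20.7, 34.4 and 28.9, then 1449, 1585 and 2718 (5.13 ± 0.47, adjusted p = 0.000411). Both sums were low in both other groups and high in each B12-mutant library. Taken singly, pud-1.1 was the one gene of the 6 not called, at 0 CPM in all 3 wild-type libraries, 9.35, 7.72 and 0.247 in vehicle mutants and 248, 86.5 and 0 in B12 mutants (adjusted p = 0.0916).

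Cuticle collagens made up the largest family beyond wild type. Of 138 tested 57 were higher and 10 lower, and 44 of the former and 8 of the latter went beyond wild type; the median was 0.95, against -0.15 in vehicle mutants. The higher count depended on single libraries, being 12 without B12-mutant library 3 and 27 without B12-mutant library 1, while the lower count was 10 and 5. Without the filter on low counts 29 were higher. The collagen col-20 measured 3.31, 7.35 and 14.6 CPM in wild type, 33.8, 14.5 and 10.4 in vehicle mutants and 119.6, 105 and 177 in B12 mutants (3.99 ± 0.63, adjusted p = 0.00645). The adult-stage collagen col-19 stood at 0.118, 3.34 and 10.6, then 27.4, 11.7 and 9.63, then 92.4, 39.8 and 102 (4.05 ± 0.95, adjusted p = 0.0306), a call lost without B12-mutant library 1 or 3 (adjusted p = 0.079 and 0.0898), with the replicate number as a block, with only the 6 libraries compared, and without the filter.

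The lower collagens included the furrow collagens, which are made early in each cuticle cycle. Levels of dpy-7 were 453, 334 and 231 CPM in wild type, 299, 302 and 288 in vehicle mutants and 118, 111 and 176 in B12 mutants (-1.33 ± 0.24, adjusted p = 0.00798), and those of dpy-8 543, 485 and 330.2, then 352, 353 and 333, then 171, 154 and 222 (-1.31 ± 0.18, adjusted p = 0.00162). The strut collagen bli-1 partly returned, at 914, 1158 and 1214 against 1786, 2367 and 1666 in wild type (-0.82 ± 0.15, adjusted p = 0.00539).

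Beside the collagens, the sum of 14 markers of adult hypodermis and vulva was 6760, 9840 and 11571 CPM in wild type, 3506, 2353 and 2514 in vehicle mutants and 11427, 14345 and 15899 in B12 mutants, so that wild type and B12 mutants overlapped. That of 15 hypodermis and seam markers was 6378, 7332 and 7320 in wild type and 7147, 8836 and 9540 in B12 mutants, with 1 of 14 tested higher and 4 lower. Within wild type, library 1 had the lowest of both sums. Collagens are in both lists, among them col-7, col-19, col-38, col-49, col-62, col-63, bli-1 and bli-2 in the first and dpy-7 in the second. Neither sum is therefore separate from the collagen result. The part that stage had in the collagen result was not tested by these sums. With the spermatogenesis level as a covariate 25 collagens were higher and 5 lower.

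**Figure D4:**
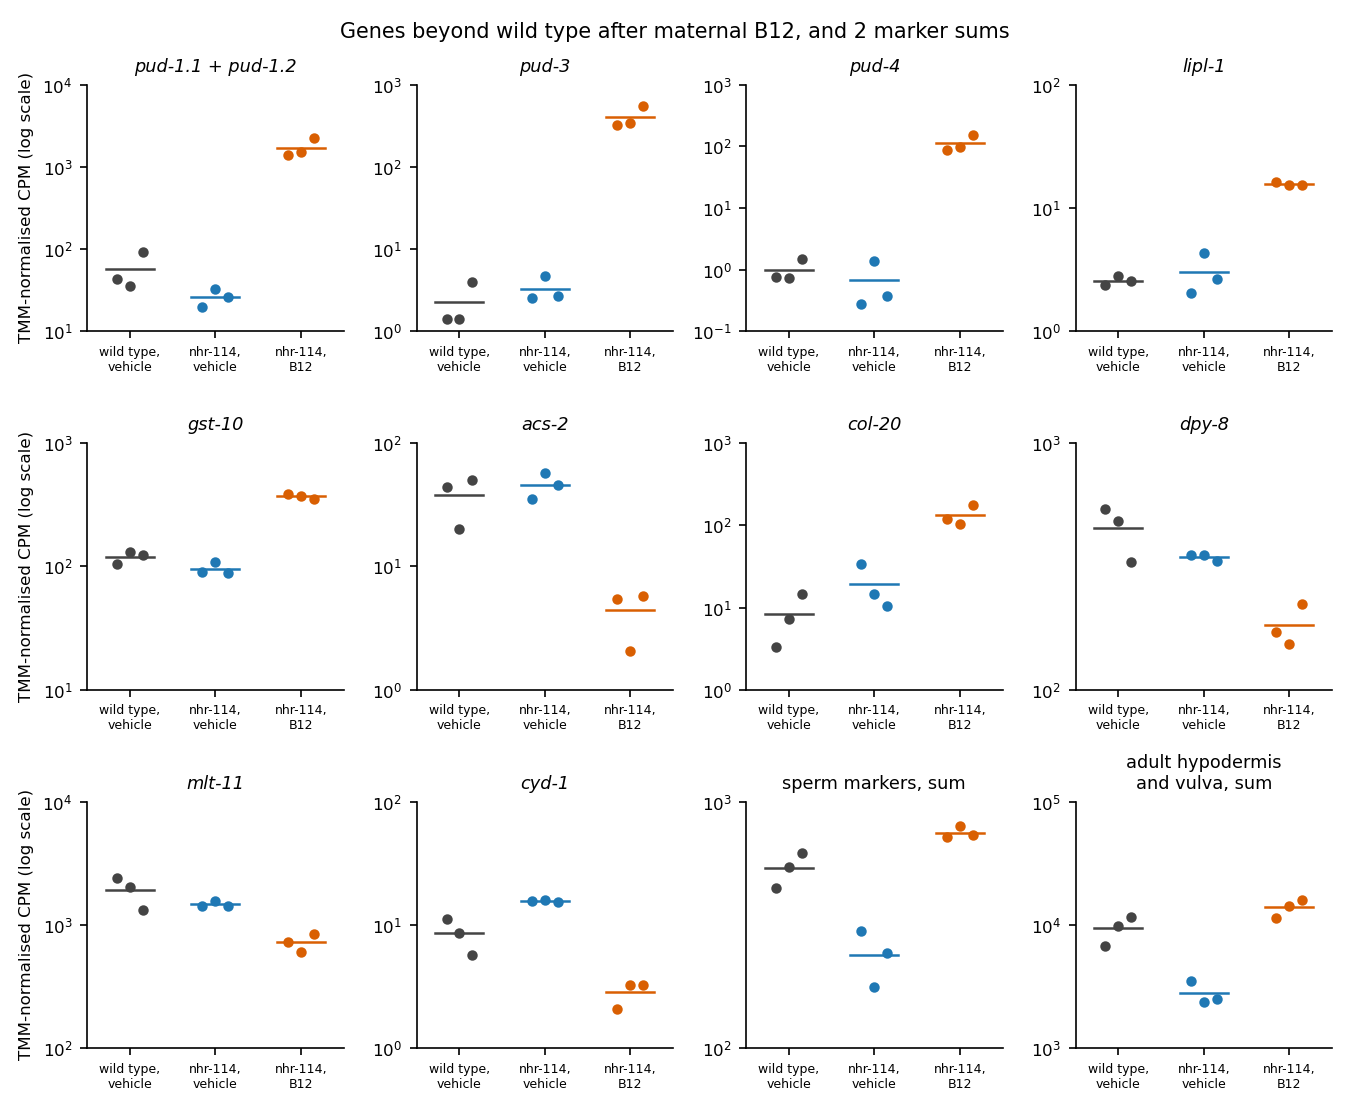
Levels of 10 genes or gene sums and of 2 marker sums (y axes, TMM-normalised CPM on log scales) in wild type, vehicle mutants and B12 mutants (x axes), with points for libraries and lines for group means. In the pud, lipl-1, gst-10 and col-20 panels the B12 mutants lie above every other library, and in the acs-2, dpy-8, mlt-11 and cyd-1 panels they are under every other one.

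Molting and developmental timing genes went the other way. Of 22 listed 10 were lower and 1 higher, 6 of the lower beyond wild type and 4 staying lower, with a median of -0.53 against -0.36 in vehicle mutants; 10 to 14 were lower in each alternative. The higher call, mlt-8, was lost without wild-type library 1 or 2, vehicle-mutant library 3 or B12-mutant library 2 or 3 (adjusted p from 0.0611 to 0.0936), with only the 6 libraries compared, and with limma on deposited CPM or TPM. The protease inhibitor mlt-11, made in each molt, measured 2417, 2021 and 1322 CPM in wild type, 1432, 1558 and 1431 in vehicle mutants and 726, 598 and 844 in B12 mutants (-1.41 ± 0.20, adjusted p = 0.00212). The matrix protein genes noah-1 and noah-2, which build the precuticle, were lower as well (-1.27 ± 0.21 and -1.22 ± 0.20, adjusted p = 0.00395 and 0.00355).

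Regulators of that transition showed smaller steps. The transcription factor myrf-1, which promotes larval development, stood at 266, 284 and 237 CPM in wild type, 263, 326 and 272 in vehicle mutants and 143, 144 and 122 in B12 mutants (-0.94 ± 0.11, adjusted p = 0.000455). The heterochronic genes hbl-1 and lin-14, which specify larval fates, were beyond wild type downwards (-0.86 ± 0.13 and -0.41 ± 0.08, adjusted p = 0.00176 and 0.00805). By contrast lin-29, which drives the switch to adult fates, and the Grainyhead factor grh-1 stayed lower by about the same amount in both mutant groups (-0.65 ± 0.13 and -0.97 ± 0.13, adjusted p = 0.00918 and 0.000896). Cyclin D, cyd-1, measured 11.2, 8.62 and 5.74 in wild type, 15.8, 15.8 and 15.2 in vehicle mutants and 2.07, 3.24 and 3.28 in B12 mutants, lying above wild type with vehicle and below it with B12 (-1.58 ± 0.26, adjusted p = 0.00346).

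Most sperm, oocyte and yolk genes had a mean level above wild type, and few were called. Over all 14795 genes tested, 7391 had a B12-mutant mean above wild type and 7.28% were called higher. None of 28 major sperm protein genes was called by edgeR over all 9 libraries, with 2 higher at an unadjusted p under 0.05 and a median of 0.38; DESeq2 called 1 higher, and edgeR called 3 higher with only the 6 libraries compared and 1 higher without vehicle-mutant library 1 or 2. Of 37 spermatogenesis markers 2 were higher, nspd-7 at 41.8, 48.7 and 55.1 CPM against 15.2, 13.97 and 14.3 in wild type (1.74 ± 0.26, adjusted p = 0.00226) and its relative nspd-1, whose call was lost without wild-type library 1 or 2 or B12-mutant library 2 or 3 (adjusted p from 0.0569 to 0.125), with the replicate number as a block, and without the filter on low counts. Oocyte and eggshell markers were higher in 2 of 20, puf-11 and perm-2, both lost without wild-type library 2 or B12-mutant library 1 or 2, puf-11 also without wild-type library 1 or vehicle-mutant library 3 and with TPM, and perm-2 also with the block. Their sum overlapped between groups, at 199, 254 and 210 CPM in wild type and 343, 288 and 204 in B12 mutants.

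Mitotic and meiotic germline genes showed no such lean. Of 20 tested, 12 had a mean above wild type, with a median of 0.12, and none was called by edgeR or DESeq2, with 1 lower at an unadjusted p under 0.05 and 1 called lower with TPM. Their sum overlapped as well, at 881, 1065 and 800.4 CPM in wild type and 1154, 1144 and 694 in B12 mutants.

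Yolk genes varied with the analysis. Of 6 vitellogenins, the yolk protein genes of the adult intestine, 4 had B12-mutant levels above all wild-type ones, which 15.9% of all genes tested had. Among the 6, vit-4 alone was called by edgeR. The count was 4 with DESeq2, TPM or a filter of at least 5 CPM in 3 libraries, 3 with upper quartile scaling or limma on deposited CPM, 2 with RLE scaling, and 0 with the replicate block or without a filter. Levels of vit-4 stood at 254, 118 and 163 against 3.84, 14.1 and 31.5 (3.44 ± 0.77, adjusted p = 0.0257), a call lost without B12-mutant library 1 or 3 (adjusted p = 0.0723 and 0.0668), with the block, and without the filter.

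Nuclear hormone receptors, the family of nhr-114, were called mostly on the higher side in vehicle mutants and in few cases in B12 mutants. Of 189 tested 102 were higher in vehicle mutants and 8 lower, whereas in B12 mutants 2 were higher and 18 lower, nhr-114 itself among the latter and 14 of them beyond wild type. Over all genes tested, 18.3% were higher and 18.3% lower in vehicle mutants. In B12 mutants the shares over all genes were 7.28% higher, 6.13% lower and 3.45% beyond wild type downwards. The family's medians were 0.60 and -0.12, and 76 of the 189 had a B12-mutant mean above wild type. Without B12-mutant library 1 or 2 there were 10 lower calls, and with TPM there were 58. Levels of nhr-137 were 19.7, 22.3 and 31.2 CPM in wild type, 20.9, 26.98 and 22.5 in vehicle mutants and 10.7, 9.85 and 11.4 in B12 mutants (-1.19 ± 0.18, adjusted p = 0.00199), and nhr-22 and nhr-138 were lower as well (-0.84 ± 0.13 and -0.80 ± 0.12, adjusted p = 0.00253 and 0.00172).

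Genes of the endoplasmic reticulum's unfolded protein response, which adds chaperones when protein or lipid balance there is disturbed, were split. Vehicle mutants had 15 of 18 higher. In B12 mutants 3 were higher and 5 lower, all 5 beyond wild type, and the median was -0.12 against 0.60. The higher calls were hsp-4, the transcription factor xbp-1 and the disulfide isomerase pdi-3, none of which was called with TPM. The call of xbp-1 was also lost without wild-type library 1 or 2 or B12-mutant library 1 or 3 (adjusted p from 0.0527 to 0.0675) and with only the 6 libraries compared. The chaperone hsp-4 partly returned, at 311, 345 and 344 CPM in wild type, 945, 871 and 882 in vehicle mutants and 513, 466 and 459.7 in B12 mutants (0.53 ± 0.08, adjusted p = 0.00227). The oxidoreductase ero-1, which forms disulfide bonds, went from 132, 144 and 140.3 in vehicle mutants to 67.7, 68.5 and 72.1, below 85.2, 92.0 and 89.6 in wild type (-0.36 ± 0.07, adjusted p = 0.0108). The other 4 lower calls were each lost when some single library was left out and with only the 6 libraries compared, and the lower count with a library left out ranged from 1 without B12-mutant library 2 to 5.

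Cytosolic ribosomal protein genes were higher in 16 of 74, with a median of 0.18 against 0.19 in vehicle mutants. That count was 6 without wild-type library 2 or B12-mutant library 1, 8 without wild-type library 3 or B12-mutant library 2, 9 without vehicle-mutant library 3 and 10 without B12-mutant library 3. With TPM it was 6 higher and 5 lower, with a median of -0.01, so that the direction of the family depends on the scale. The ribosomal gene rps-16 measured 1004, 839 and 703 CPM in wild type, 1408, 1412 and 1212 in vehicle mutants and 1504, 1437 and 1398 in B12 mutants (0.77 ± 0.12, adjusted p = 0.00263).

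**Figure D5:**
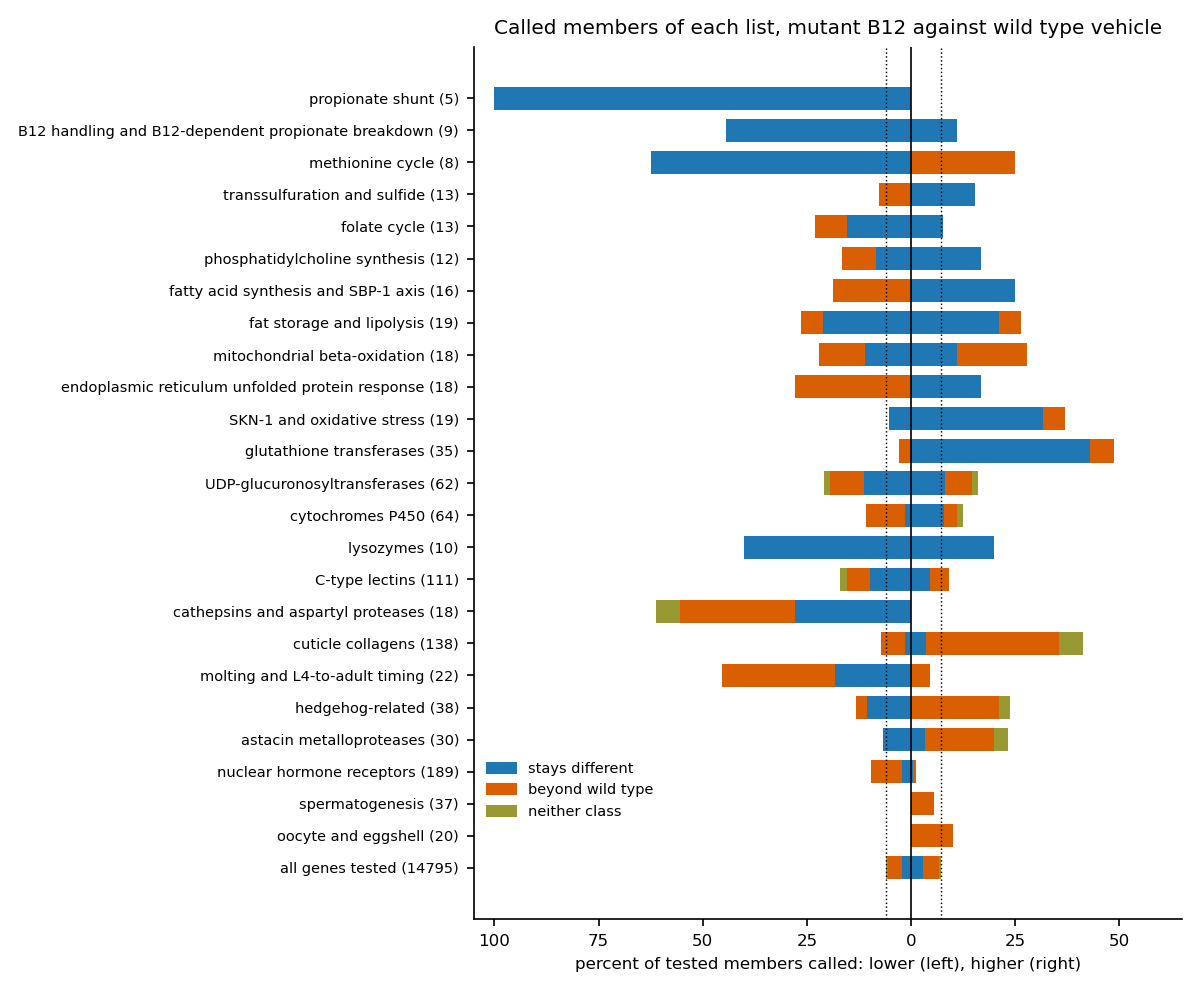
Percent of the tested members of each list called lower (left) or higher (right) in B12 mutants against wild type, split by class, with the number tested in brackets and dotted lines at the shares over all genes tested (6.13% lower, 7.28% higher). The propionate shunt is lower throughout, glutathione transferases and collagens lean to the right, and cathepsins and molting genes to the left.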

How the data were processed

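Per the labels' protocols, TRIzol RNA of whole L4 worms was sequenced in paired ends on a NovaSeq. The authors deposited kallisto (0.46.0) estimated counts per transcript of WormBase WS245, per the submitters' processing notes and the file headers, and a table of CPM (counts scaled to library size) per gene. The labels do not state the strand setting, so a gene and an antisense or overlapping partner cannot be told apart.

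Estimated counts of 30939 transcripts were summed to 20444 genes and rounded. Of these, 20165 matched gene IDs of Ensembl WBcel235, which supplied the coordinates, and 279 with 0.165% of counts did not. Of 20306 deposited CPM entries, 19013 matched by symbol, and 99.7% of those at 1 CPM or more were equal to CPM from these sums within 1%. TPM was computed here from the estimated counts and effective lengths the authors deposited, and summed per gene. Genes were filtered with filterByExpr, scaled by TMM and tested with edgeR (4.0.16, R 4.3.3) by a robust quasi-likelihood F test over all 9 libraries in 3 groups, with Benjamini-Hochberg adjustment over 14795 genes and a threshold of 0.05. The code was tested on simulated data. Printed levels are TMM-normalised CPM, a ± is an SE on the log2 scale, and fold changes are B12 mutants minus wild type unless said. Ratios of counts are scaled to library size with exact 95% intervals that cover counting error only. Because fewer than 4 libraries make a group, none was tested as an outlier.

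Named genes were a fixed set of B12, lipid and stress genes, the largest changes overall and per class with a mean of at least 5 CPM, and up to 4 genes per list by adjusted p. Genes named because a count was 5 or fewer, and the other members printed, were chosen after their values were seen. The genes, lists and classes were chosen with earlier results of these data known. Alternatives were other scalings and filters, DESeq2 (1.42.0), limma (3.58.1) on log2 of the deposited CPM or of the computed TPM with a pseudocount of 1, the 6 libraries alone, a replicate block, a spermatogenesis covariate, and each library left out. Sequences were not used here.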

Additional observations from a re-analysis of the deposited data

How the results depend on the processing

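Counts of 1077 higher, 907 lower, 438 and 321 staying higher and lower, and 559 and 511 beyond wild type stayed within 1.5 times under RLE and upper quartile scaling, both filters, DESeq2 (1464 higher, 1128 lower) and limma on deposited CPM. With only the 6 libraries compared they were 829 and 632. Limma on TPM gave 3701 lower, 272 staying higher, 900 staying lower and 2141 beyond and lower. With the spermatogenesis level as a covariate the 6 counts were 684, 504, 64, 60, 4 and 4. That level follows the groups, which inflates the variance of its own coefficient 10.8 times. The inflation of each comparison between groups was not computed. Leaving out each library in turn gave 673 to 1216 higher, 555 to 901 lower, 292 to 462 and 239 to 316 staying higher and lower, and 305 to 686 and 243 to 522 beyond. Same-numbered wild-type and B12-mutant libraries correlated at -0.019, 0.370 and 0.128 in their deviations, and different-numbered ones at -0.423 to 0.271. The labels do not say whether the numbers pair libraries, and these few values cannot decide it. With the replicate block 1736 genes were called (1005 higher, 731 lower). Signs turned for 2 genes that were not called: pmt-1 with TPM (-0.15), and nhr-10 with the covariate (0.12) and without wild-type library 3 or B12-mutant library 2 (range over all libraries left out -0.1174 to 0.01266). Of 136 called genes tracked, 111 kept their call in every alternative that tested them and with each library left out, the covariate aside. Some, such as lipl-3, clc-24 and cyp-13A4, were not tested in every alternative. The causes were not tested. Sums of the pud copies were added after seeing the data. Depth limits genes under about 1 CPM, where wild type or mutants hold few counts.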
